A study of Mus musculus with 6 samples.

Results

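The mouse mitochondrial genome carries 7 protein-coding genes for complex I of the respiratory chain: mt-Nd1, mt-Nd2, mt-Nd3, mt-Nd4, mt-Nd4l, mt-Nd5 and mt-Nd6. These 7 of the 32285 genes counted were taken by name, with no value used to choose them, and were followed gene by gene across the germ and somatic cells of the testis and across the diets. The testes came from 8-week-old C57BL/6 wildtype males (the study's methods name the substrain C57BL/6N) that had eaten either high-fat food (HFD) or low-fat food (LFD) for 2 weeks, and 3 libraries were made per diet, which the study's methods give as 3 mice. Each library is a droplet-based single-cell RNA-seq of a whole-testis suspension, in which a unique molecular identifier (UMI) counts each captured 3′ end of a polyadenylated RNA once. No allele, transgene or other agent differed between the groups, and the number of mice behind a library is not stated in the labels.

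Complex I takes electrons from NADH, passes them to ubiquinone and pumps protons across the inner mitochondrial membrane. The mitochondrially encoded subunits form the core of its membrane arm: ND2, ND4 and ND5 are the antiporter-like subunits, ND1 lines the ubiquinone channel where the membrane arm meets the peripheral arm, and ND3, ND4L and ND6 are small subunits between them. The mRNAs are cut out of long transcripts that run along almost a whole strand of the circular genome, so that the members coded in the direction of the main polycistron share a precursor, whereas mt-Nd6 comes from the opposite transcript. In the testis, spermatogonia lie outside the blood-testis barrier, and meiotic and haploid germ cells are commonly described as relying strongly on respiration fed by lactate from Sertoli cells, the somatic nurse cells of the tubule.

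In the GENCODE M21 annotation of GRCm38, the build used for counting, 6 members lie on the plus strand of the mitochondrial chromosome and 1, mt-Nd6, on the minus strand. Their single-exon genes have no annotated UTR in this build: mt-Nd1 at chrM:2751-3707, mt-Nd2 at chrM:3914-4951, mt-Nd3 at chrM:9459-9806, mt-Nd4l at chrM:9877-10173, mt-Nd4 at chrM:10167-11544, mt-Nd5 at chrM:11742-13565 and mt-Nd6 at chrM:13552-14070. Neighbouring members overlap at 2 places, and the sequences there are shown because they bear on what was counted. At 1 of them both genes lie on the same strand, so a read could belong to either. At the other the genes lie on opposite strands. The last 7 bases of mt-Nd4l are the first 7 of mt-Nd4 on the same strand, and the last 14 bases of mt-Nd5 are complementary to the last 14 of mt-Nd6. Each stretch below is written 5′ to 3′ on the strand of its gene, with the shared bases in capitals.
mt-Nd4l end, chrM:10134-10173, plus strand: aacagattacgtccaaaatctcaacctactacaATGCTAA
mt-Nd4 start, chrM:10167-10206, plus strand: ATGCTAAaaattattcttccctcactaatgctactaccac
mt-Nd5 end, chrM:13526-13565, plus strand: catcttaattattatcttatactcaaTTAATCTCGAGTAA
mt-Nd6 end, chrM:13552-13591, minus strand: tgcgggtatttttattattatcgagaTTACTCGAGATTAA
In these 4 stretches the 3′ end of mt-Nd5 and the 3′ end of mt-Nd6 face each other, and mt-Nd4l has no 3′ end of its own, because mt-Nd4l and mt-Nd4 are known to remain joined in a single bicistronic mRNA.

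Since capture starts from stretches of A, the longest run of A inside each member was also read from the sequence. The run was longest in mt-Nd2, with 8 bases, followed by 7 in mt-Nd4 and in mt-Nd5, 6 in mt-Nd1, 5 in mt-Nd3, 4 in mt-Nd4l and 3 in mt-Nd6. The runs of mt-Nd2 and mt-Nd4, which are long, and of mt-Nd6, the shortest, are printed with their surroundings, the run in capitals.
mt-Nd2 A run, chrM:4037-4074, plus strand: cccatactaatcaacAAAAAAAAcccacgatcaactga
mt-Nd4 A run, chrM:10212-10248, plus strand: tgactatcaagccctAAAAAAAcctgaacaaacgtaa
mt-Nd6 A run, chrM:13991-14023, minus strand: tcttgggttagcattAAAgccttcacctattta
Whether UMIs of the members were primed at such inner runs or at the tail was not tested. Annotated nuclear pseudogenes hold copies of 6 of the 7 members, and none of these pseudogenes is in the list of counted features. The closest are Gm28439, which matches mt-Nd4 over 876 bases at 100% identity (chr1:24611535-24612410), Gm10222, which matches mt-Nd4l over 294 bases at 100% (chr1:24612407-24612700), and Gm28438, which matches mt-Nd3 over 345 bases at 99.7% (chr1:24612775-24613119). No such copy was found for mt-Nd1. Whether reads of a nuclear copy entered the counts was not tested.

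The 6 libraries held 48939 barcodes and 429495465 UMIs, with 39196921 to 95845514 UMIs a library. Barcodes were placed in cell classes from their UMIs of marker genes, none of them mitochondrial, and 7 classes had at least 20 barcodes in every library: spermatogonia and early spermatocytes (2237 barcodes, median 8839 UMIs), pachytene spermatocytes (1200, 36384), late spermatocytes (1085, 31015), round spermatids (2426, 36159), elongating spermatids (7571, 4531), Sertoli cells (492, 2193) and macrophages (263, 3388). A further 33477 barcodes (68.4%), with a median of 2403 UMIs and 29.2% of all UMIs, passed no gate and entered only the whole-testis values. In the libraries LFD 2 and LFD 3 the pachytene barcodes had median depths of 4453 and 3383 UMIs, against 49823 to 66002 in the other libraries. The Sertoli class of HFD 2 had 22 barcodes and 2305 CPM of summed Sertoli markers, against 10900 to 17330 CPM in the other libraries, so its label rests on little. In a clustering made without mitochondrial genes, HFD 2 supplied 2112 of 2169 barcodes of a cluster and 528 of 539 of another. A set of 284 barcode sequences occurred in more than 1 library (569 barcodes). The deposited file names give every library the opposite diet to its label, so groups are called "labelled HFD" and "labelled LFD" here, and every diet sign would flip if the file names were right.

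Among germ cells the members were most abundant in spermatogonia and early spermatocytes, lower in pachytene and again in late spermatocytes, and scarcest in round spermatids. Their summed level, in CPM (a gene's UMIs scaled to the same total of UMIs for every class and library), was 10324 ± 1616 in spermatogonia and early spermatocytes, 5072 ± 2086 in pachytene spermatocytes, 1736 ± 355 in late spermatocytes, 273 ± 77.2 in round spermatids and 595 ± 321 in elongating spermatids (mean ± SD, n = 6 libraries). Sertoli cells had the highest mean, 22283 ± 14792 CPM, and macrophages had 3932 ± 1376 CPM. The Sertoli lead holds for summed UMIs in 5 of 6 libraries: in HFD 2 the Sertoli sum, 4910 CPM, was below that of its spermatogonia and early spermatocytes, and the median Sertoli barcode had a lower share of members (0.460% of its UMIs) than the median barcode of spermatogonia and early spermatocytes (0.973%). By library, in the order HFD 1, HFD 2, HFD 3, LFD 1, LFD 2 and LFD 3, the sum was 8696, 12694, 10897, 9675, 8608 and 11371 CPM in spermatogonia and early spermatocytes. In pachytene spermatocytes it was 3077, 5759, 4676, 3560, 4479 and 8881 CPM, and in late spermatocytes 1394, 2167, 2201, 1489, 1608 and 1555 CPM. The pachytene value of LFD 3, which was 5766 CPM among barcodes of at least 5000 UMIs, reached into the range of the earlier class, whereas every late spermatocyte value lay below every pachytene value. In round spermatids the sum was 242, 311, 352, 191, 357 and 187 CPM, and in elongating spermatids 315, 590, 653, 249, 608 and 1155 CPM. All 6 libraries had a lower sum in round spermatids than in late spermatocytes and than in elongating spermatids, although the ranges of the spermatid classes overlapped.

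**Figure D1:**
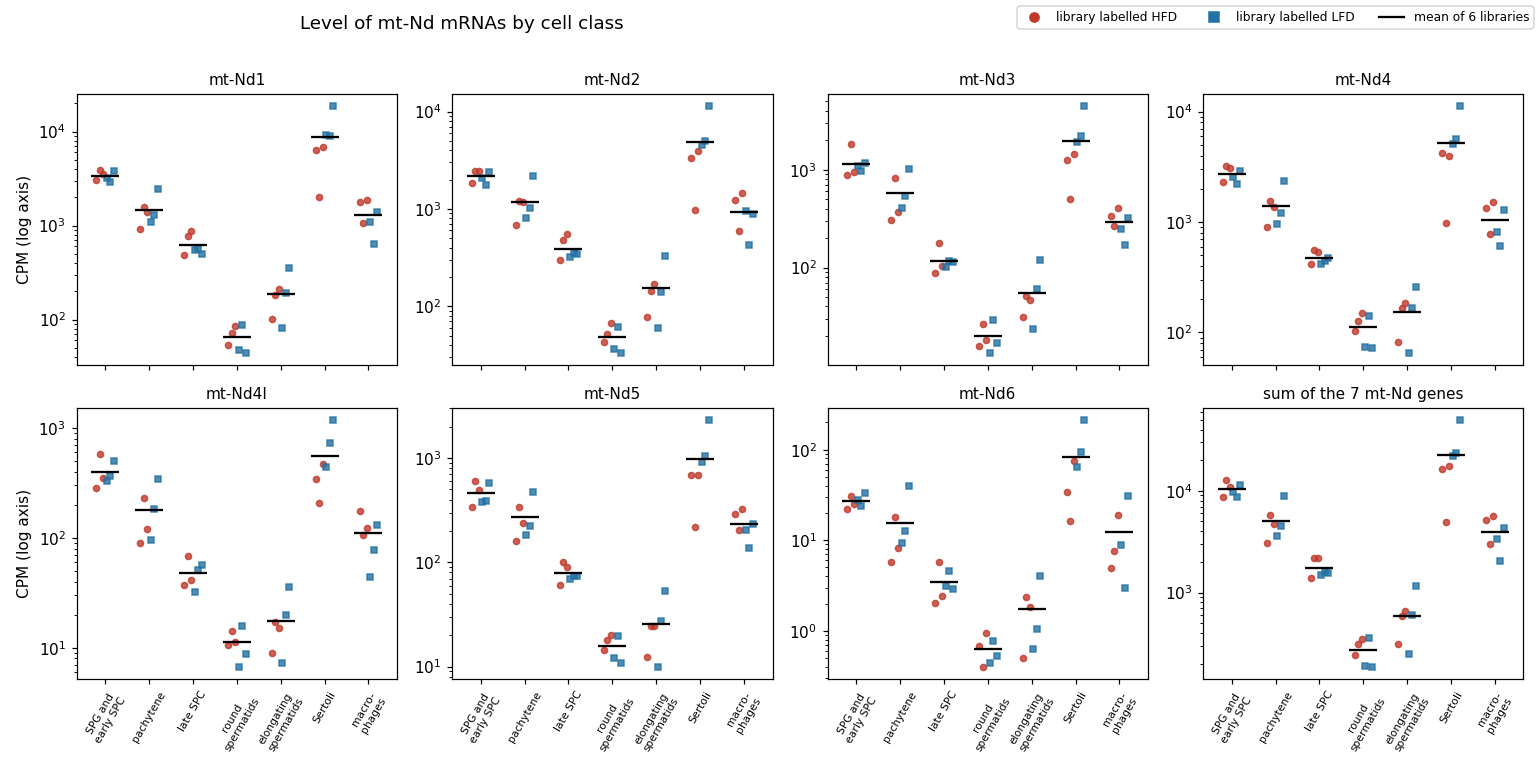
Level of each mt-Nd mRNA and of their sum by cell class, in CPM on a logarithmic axis, with 1 symbol per library (circles labelled HFD, squares labelled LFD) and a bar at the mean of 6 libraries. Each member has its lowest mean in round spermatids (0.63 CPM for mt-Nd6, 111.5 CPM for mt-Nd4) and its highest in Sertoli cells.

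The order of the class means was the same for each of the 7 members: Sertoli cells, spermatogonia and early spermatocytes, pachytene spermatocytes, macrophages, late spermatocytes, elongating spermatids, round spermatids. Most neighbours in that order had overlapping ranges over the libraries. For mt-Nd2, mt-Nd3, mt-Nd4l and mt-Nd6 every pair of neighbours overlapped, for mt-Nd4 and mt-Nd5 macrophages were above late spermatocytes and late spermatocytes above elongating spermatids in all libraries, and for mt-Nd1 the ranges parted after spermatogonia and early spermatocytes and after late spermatocytes.

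mt-Nd1, for the subunit at the ubiquinone channel, had the most UMIs for its length in 5 of the 7 classes. Its level was 2878, 3377 and 3940 CPM in spermatogonia and early spermatocytes (lowest, median and highest of 6 libraries), 488, 556 and 869 CPM in late spermatocytes and 44.5, 63.0 and 88.3 CPM in round spermatids, so the highest round spermatid library was below the lowest late spermatocyte library. mt-Nd3, for a small junction subunit, had 889, 1031 and 1840 CPM in spermatogonia and early spermatocytes and 13.5, 17.6 and 29.3 CPM in round spermatids. Per kilobase of annotated gene, whole-testis means were 1482 CPM for mt-Nd1, 1230 for mt-Nd3, 1042 for mt-Nd2, 885 for mt-Nd4, 489 for mt-Nd4l, 118.5 for mt-Nd5 and 26.7 for mt-Nd6. With 3′ end counting a longer gene does not yield more UMIs, so the CPM order, which puts mt-Nd1 (1418), mt-Nd4 (1220) and mt-Nd2 (1082) first and mt-Nd6 (13.9) last, stands beside it. mt-Nd4l, mt-Nd5 and mt-Nd6 took ranks 5, 6 and 7 per kilobase in each of the 7 classes. The exceptions to the lead of mt-Nd1 were mt-Nd3 in pachytene spermatocytes (1663 CPM per kilobase, against 1521) and mt-Nd4 in round spermatids (80.9, against 68.3). Both had ranges over the libraries that overlapped those of mt-Nd1. Compared within a library, mt-Nd4 was the higher in every round spermatid library, and mt-Nd3 in only some of the pachytene libraries.

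Among the antiporter-like subunits, mt-Nd4 and mt-Nd2 were far above mt-Nd5. In spermatogonia and early spermatocytes mt-Nd4 had 2718 ± 426 CPM, mt-Nd2 2161 ± 325 CPM and mt-Nd5 464 ± 112 CPM (mean ± SD, n = 6). In round spermatids mt-Nd4 had 72.0, 116 and 149 CPM as lowest, median and highest library, against 33.4, 47.8 and 66.6 CPM for mt-Nd2, and mt-Nd4 was the higher of the pair in every library. mt-Nd4l, which shares its mRNA with mt-Nd4, had 402 ± 113 CPM in spermatogonia and early spermatocytes and 11.2 ± 3.31 CPM in round spermatids. There were 8.80 ± 1.60 UMIs of mt-Nd4 for each UMI of mt-Nd4l in the whole testis, with class means from 7.0 in spermatogonia and early spermatocytes to 10.5 in macrophages. A UMI of the shared mRNA counts for the gene its read fell in, so this ratio is not one of molecules.

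mt-Nd6, the light-strand member, was the rarest everywhere. It had 5279 UMIs over the 6 libraries (571 to 1156 a library), and its level in spermatogonia and early spermatocytes was 22.1, 26.6 and 33.4 CPM (lowest, median and highest library). In round spermatids it rested on 59 UMIs in all, 4 to 15 a library, or 0.40 to 0.94 CPM, and in macrophages on 12 UMIs in all. Differences of mt-Nd6 among those classes are therefore close to the limit of the depth. The mt-Nd5 to mt-Nd6 ratio was 16.4 ± 2.20 UMIs in the whole testis (n = 6) and had class means from 13.2 in Sertoli cells to 30.03 in macrophages, where single libraries ran from 7.67 to 59.

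Counts per barcode, which also depend on the depth of a class, gave another order. Pachytene spermatocytes had 185 UMIs of the members per barcode, Sertoli cells 145, spermatogonia and early spermatocytes 126, late spermatocytes 64.4, macrophages 17.3, round spermatids 10.6 and elongating spermatids 5.49. Round spermatids, with a median depth of 36159 UMIs, thus held few copies in deep barcodes. After each barcode was thinned to 1000 UMIs, at least 1 UMI of a member was found in 93.5 ± 1.90% of spermatogonia and early spermatocytes, 75.8 ± 11.0% of pachytene spermatocytes, 71.4 ± 6.45% of late spermatocytes, 18.3 ± 4.30% of round spermatids and 21.3 ± 12.0% of elongating spermatids (mean ± SD, n = 6 libraries). Before thinning, the shares over all barcodes were 94.6, 82.8, 93.4, 73.4 and 49.8%. On these values round spermatids were below the 3 earlier classes at either depth, and their order against elongating spermatids turned with depth. Single libraries before thinning ran from 67.0 to 95.5% in pachytene spermatocytes and from 63.7 to 84.8% in round spermatids. In LFD 2 round spermatids were then above pachytene spermatocytes. No barcode was left out by thinning, as the shallowest had 1221 UMIs, and no class lacks mitochondria that could serve as a background for free RNA.

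**Figure D2:**
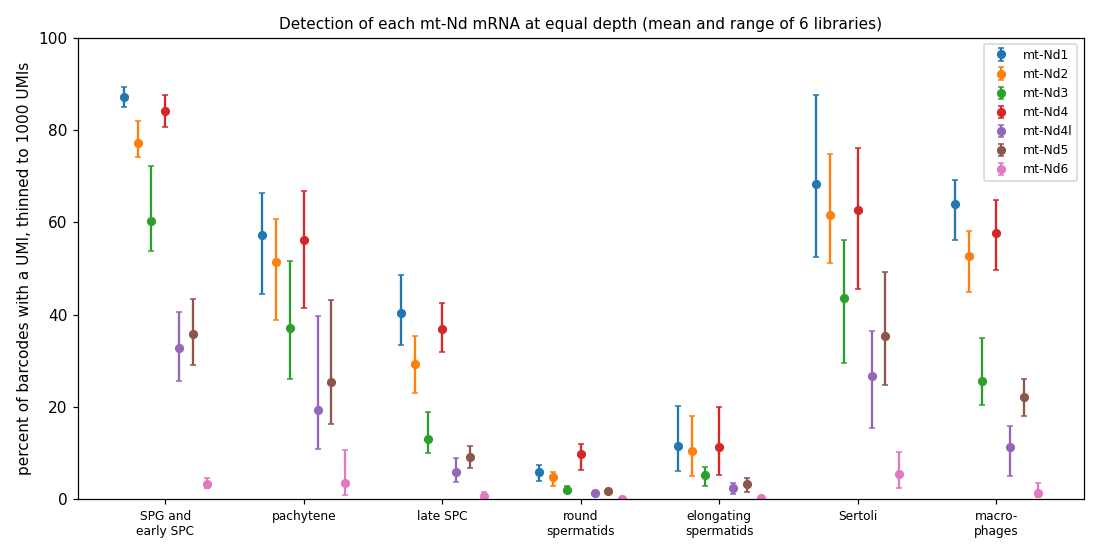
Percent of barcodes with at least 1 UMI of each member after thinning to 1000 UMIs, by cell class, as the mean (dot) and range (bar) of 6 libraries. mt-Nd1 and mt-Nd4 are detected in 87.1% and 84.2% of spermatogonia and early spermatocytes and in 5.92% and 9.76% of round spermatids, and mt-Nd6 in at most 5.45% of any class.

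The barcodes of a class were unequal. The members made up 2.03% of the pooled UMIs of Sertoli cells but 0.460% of those of the median Sertoli barcode, and the 10% of Sertoli barcodes with the most UMIs of the members held 60.3% of them. In elongating spermatids 50.2% of the barcodes had none and the top 10% held 79.3%. In spermatogonia and early spermatocytes the pooled and the median barcode share were close, 1.02% and 0.973%, with 29.6% of the UMIs in the top 10%. Depth was unequal as well. Within single libraries the deepest 10% of Sertoli barcodes held 44.5 to 69.5% of all UMIs of the class. The deepest 10% held 34.4 to 52.8% in elongating spermatids and 29.3 to 32.3% in spermatogonia and early spermatocytes. How far the concentration of the members followed depth was not tested. The Sertoli class also held 14094 to 50740 CPM of elongating spermatid markers, whose part in its values was not tested.

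Between neighbouring germ cell stages the differences were tested with edgeR in a single fit of all 7 classes, with the library as a term and 17614 genes tested. From spermatogonia and early spermatocytes to pachytene spermatocytes 5 of the 7 members fell, by a log2 change of -0.65 ± 0.26 for mt-Nd4 (SE, adjusted p = 0.0209) to -0.92 ± 0.23 for mt-Nd4l (adjusted p = 0.000422). mt-Nd2 (-0.58 ± 0.28, adjusted p = 0.0576) and mt-Nd5 (-0.46 ± 0.26, adjusted p = 0.0978) did not pass. Of all genes tested 43.7% were called lower here and the median gene changed by -0.48, so that the median member, at -0.72, was 0.24 below the median gene. DESeq2, with other scaling, put the median gene at -0.82 here, and its calls over all genes were 3927 higher and 10087 lower, against 5107 and 7695 with edgeR. Its calls were also shifted in later contrasts: 8509 higher and 3539 lower from round to elongating spermatids (edgeR 6932 and 4413), 6973 and 4734 in Sertoli cells (edgeR 6111 and 5114) and 7159 and 4048 in macrophages (edgeR 4668 and 4310, or 3667 and 5888 with library sizes counted without mitochondrial mRNAs). The count for this step depended on the samples and the gate: 0 members were called when the gate was loosened, 2 without HFD 1, 3 without HFD 3 and 2 without LFD 1.

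From pachytene to late spermatocytes all 7 fell, where 26.6% of all genes were called lower and the median gene changed by 0.06. The junction subunits marked the range: mt-Nd1 changed least (-1.01 ± 0.26, adjusted p = 0.000917) and mt-Nd3 most (-2.06 ± 0.27, adjusted p = 7.54e-09). mt-Nd2 and mt-Nd4 fell by 1.37 and 1.34 on the log2 scale, mt-Nd5 by 1.54, mt-Nd4l by 1.64 and mt-Nd6 by 1.77. From late spermatocytes to round spermatids all 7 fell again, where 27.3% of all genes were called lower and the median gene changed by 0.08. Here mt-Nd1 fell most (-2.82 ± 0.28, adjusted p = 8.25e-13), followed by mt-Nd2 (-2.55 ± 0.29), and mt-Nd4l (-1.62 ± 0.24) and mt-Nd4 (-1.66 ± 0.26) least, with mt-Nd3, mt-Nd6 and mt-Nd5 at -2.11, -1.90 and -1.86. The 7 calls of each of these 2 steps were also made with DESeq2, without each library in turn, with the looser and the stricter gate and with barcodes of at least 5000 UMIs. The late spermatocyte class was close to the round spermatids: 869 of its 1085 barcodes lay in the cluster named round spermatids. The round spermatid markers Ssxb1, Ssxb3 and Ssxb10 were highest in late spermatocytes, whereas the other markers of that list were highest in round spermatids.

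From round to elongating spermatids all 7 rose when barcodes were gated by markers, where 39.4% of all genes were called higher and the median gene changed by 0.29, but with classes taken from clusters mt-Nd1, mt-Nd4, mt-Nd4l and mt-Nd5 turned negative (-0.08, -0.51, -0.38 and -0.50). In the gated classes mt-Nd2 rose by 2.14 ± 0.29, mt-Nd1 by 2.07 ± 0.27, mt-Nd3 by 2.03 ± 0.28 and mt-Nd6 by 1.74 ± 0.36 on the log2 scale, whereas mt-Nd5, mt-Nd4l and mt-Nd4 rose by 1.17 ± 0.27, 1.15 ± 0.25 and 1.03 ± 0.26 (adjusted p from 4.77e-09 to 0.000617). These changes are of summed UMIs after TMM scaling. In plain CPM the mean of mt-Nd4 was 111.5 in round and 154.9 in elongating spermatids. By CPM, mt-Nd4 and mt-Nd5 were lower in elongating spermatids in HFD 1 and LFD 1, and mt-Nd4l in HFD 1. The members were 0.00622% of the UMIs of the median round spermatid barcode and 0% of those of the median, shallower elongating one. The cluster named round spermatids also held 869 barcodes gated as late spermatocytes, and its summed level was 808 CPM. Conversely, a cluster named elongating spermatids held 418 barcodes gated as round spermatids. The members were 0.00643% of the UMIs of that cluster, the lowest share of any cluster. Among barcodes of at least 5000 UMIs the sums of elongating against round spermatids were 310 and 307 CPM in HFD 2 and 179 and 186 CPM in LFD 1, so 5 of 6 libraries were then higher in elongating spermatids.

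Against spermatogonia and early spermatocytes, all 7 members were higher in Sertoli cells, from 0.60 ± 0.24 for mt-Nd4l (adjusted p = 0.0254) to 1.57 ± 0.27 for mt-Nd6 (adjusted p = 1.51e-06) on the log2 scale, where 34.7% of all genes were called higher and the median gene was at 0.14. The test is of summed UMIs, and over single barcodes the order of the medians was the opposite. The mt-Nd4l call was lost in 6 settings, among them library sizes counted without mitochondrial mRNAs (0.37, adjusted p = 0.186), and that of mt-Nd3 without LFD 2 (0.57, adjusted p = 0.122) or without LFD 3 (0.56, adjusted p = 0.0551). In macrophages 6 of 7 were lower, from -0.69 ± 0.28 for mt-Nd5 to -1.66 ± 0.29 for mt-Nd3, where 24.5% of all genes were called lower and the median gene was at 0.00. mt-Nd6, with 12 macrophage UMIs, was at -1.21 ± 0.53 (adjusted p = 0.0534). Macrophages are phagocytes of the interstitium and, unlike Sertoli cells, lie outside the tubule.

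**Figure D3:**
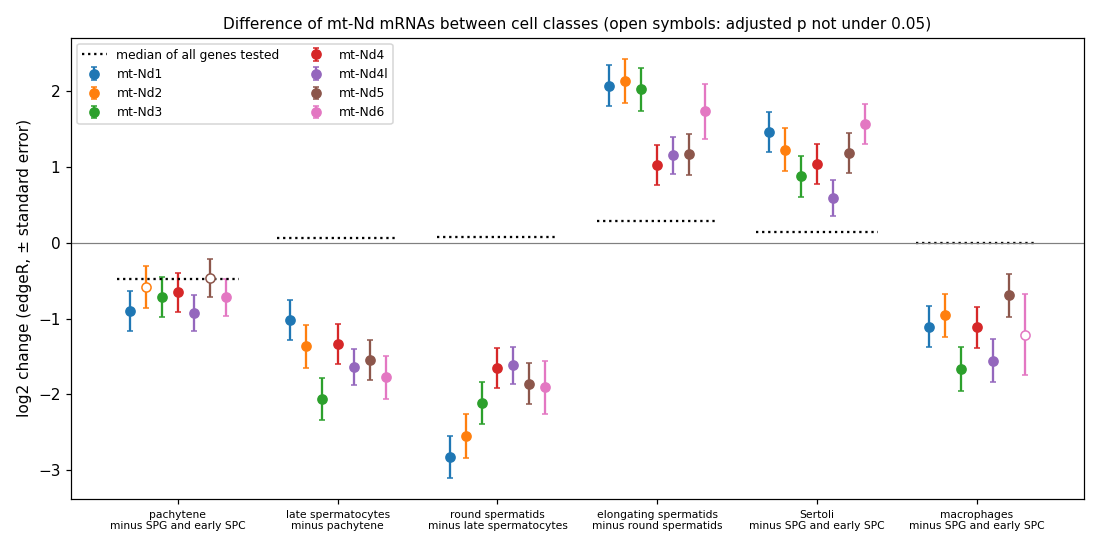
Log2 change of each member between cell classes (edgeR, points with standard errors, open where the adjusted p was not under 0.05), with the median of all genes tested as a dotted line. All 7 members lie below the line from pachytene to late and from late to round cells, and above it from round to elongating spermatids, the step that 4 members reverse when classes come from clusters.

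The composition of the members' UMIs also differed between stages, and most of all in round spermatids. There mt-Nd4 was 42.7, 41.2, 42.4, 39.1, 39.7 and 38.5% of the UMIs of the 7 (HFD 1 to 3, then LFD 1 to 3), against 30.1, 25.6, 24.6, 28.3, 27.6 and 30.2% in late spermatocytes and 26.1, 28.3, 28.5, 26.4, 27.7 and 22.5% in elongating spermatids. No library of either neighbour reached the lowest round spermatid value. Peritubular and stromal cells, with 3 to 66 barcodes a library, came nearest at 33.3 ± 2.79%. The mean difference was 12.9 ± 3.40 percentage points from late spermatocytes to round spermatids and -14.0 ± 1.85 points from there to elongating spermatids (SD, n = 6), in the same direction in 6 of 6 libraries. The counterpart was mt-Nd1, with 23.9 ± 1.00% in round spermatids against 35.7 ± 2.45% in late and 31.8 ± 0.917% in elongating spermatids, and mt-Nd2, with 17.9 ± 0.834% against 22.3 ± 1.41% and 25.1 ± 1.94%. The share of mt-Nd4l rose from 2.77 to 4.13% and that of mt-Nd5 from 4.54 to 5.85% between late spermatocytes and round spermatids, again in all libraries. Within the class, the 1860 round spermatid barcodes in the larger cluster had 41.4% mt-Nd4, over 23998 UMIs of the members. The 418 in a cluster named elongating spermatids had 30.05%, over 1055 UMIs of the members.

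The share of mt-Nd3 was lower from late spermatocytes on. It was 11.1 ± 1.95% in spermatogonia and early spermatocytes, 11.2 ± 2.15% in pachytene and 6.76 ± 1.2% in late spermatocytes, a difference of -4.44 ± 1.00 points for the last step in 6 of 6 libraries. mt-Nd1 went from 33.1 to 29.1 and then 35.7% over the same stages, lower in pachytene than in either neighbour in all libraries. In Sertoli cells mt-Nd1 had its largest share, 39.4 ± 1.58%, which was 6.36 ± 2.31 points above spermatogonia and early spermatocytes. The share of mt-Nd6 lay between 0.200% in late spermatocytes and 0.349% in Sertoli cells and was called in none of the 6 class pairs.

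Of 42 shares tested, with 7 members in 6 class pairs, 27 were called by the exact sign-flip permutation test over libraries (two-sided, adjusted p = 0.0486). All 27 were at p = 0.03125, the smallest that this exact test allows with 6 libraries, so a call means only that all 6 libraries moved the same way, and the adjusted value rests on 27 reaching that floor together. Because shares sum to a whole, a rise of mt-Nd4 lowers others. Taken against all 13 mitochondrial mRNAs, the shares of mt-Nd2 and mt-Nd4 turned negative from spermatogonia and early spermatocytes to pachytene (-0.125 and -0.396 points, against 2.16 and 1.28 among the 7). With classes from clusters 0 were called, but these gave no late spermatocytes, so the steps into and out of that class were not tested. With the stricter gate 0 were called among the pairs without Sertoli cells, which dropped out there. A count of 0 can also follow from fewer shares reaching the floor together.

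**Figure D4:**
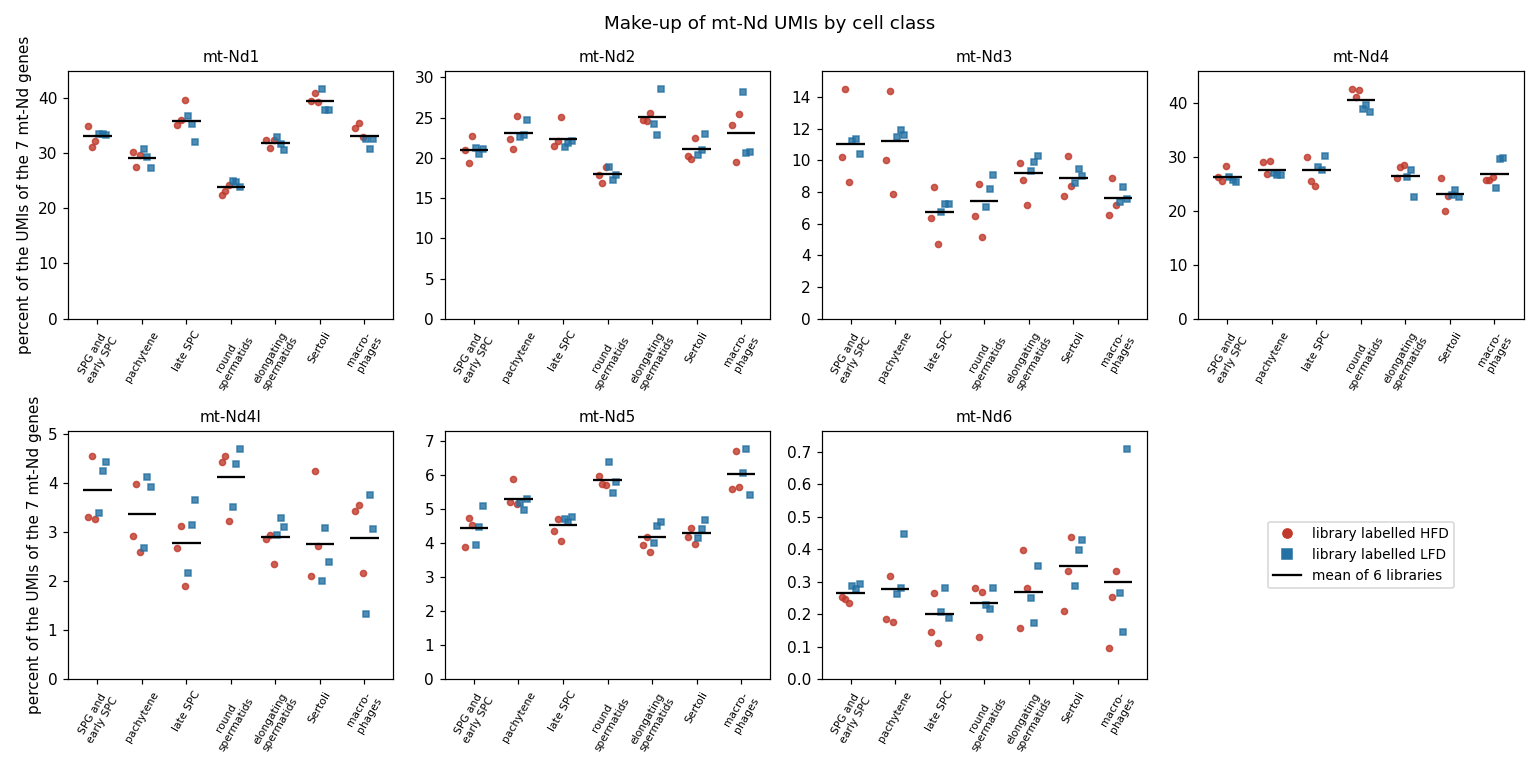
Share of each member among the UMIs of the 7, in percent, by cell class, with 1 symbol per library (circles labelled HFD, squares labelled LFD) and a bar at the mean of 6. mt-Nd4 stands at 38.5 to 42.7% in round spermatids and at most at 30.2% in the other classes shown.

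The other 6 mitochondrial mRNAs, for cytochrome c oxidase, ATP synthase and cytochrome b, ran alongside. Of these, 4 fell into pachytene, 6 into late spermatocytes and 6 into round spermatids, and 6 rose into elongating spermatids, with medians of -0.66, -1.21, -2.23 and 1.39. The members were 18.0 ± 1.10% of the UMIs of all 13 mRNAs in spermatogonia and early spermatocytes, 15.8 ± 1.38% in pachytene, 14.1 ± 1.23% in late spermatocytes, 14.9 ± 1.11% in round and 16.9 ± 1.24% in elongating spermatids (mean ± SD, n = 6). Sertoli cells had 18.2 ± 0.966% and macrophages 17.4 ± 0.900%.

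The nuclear genes of the same complex moved in both directions at every step. Of 37 nuclear subunit genes tested, 20 rose and 5 fell from spermatogonia and early spermatocytes to pachytene, where 29% of all genes were called higher and 43.7% lower, with a median of 0.40 where the median of all genes was -0.48. Among those that rose were Ndufa12 (1.06 ± 0.17) and Ndufb10 (0.97 ± 0.15), both accessory subunits. Ndufb11 (-6.22 ± 0.29) and Ndufa1 (-3.05 ± 0.21), accessory subunits of the membrane arm coded on chromosome X, fell most, and Ndufb11 was higher again in late spermatocytes (3.09 ± 0.33). Into late spermatocytes 5 rose and 14 fell (29.5% and 26.6% of all genes), among them Ndufs8 (-0.98 ± 0.15), an iron-sulphur subunit, and the median was -0.17. Into round spermatids 7 rose and 9 fell (35.2% and 27.3% of all genes), so the fallen were near the share of all genes, and the median was 0.05, where the median member was at -1.90. Ndufc2 fell there (-1.99 ± 0.20) and rose into elongating spermatids (1.41 ± 0.20), when 9 rose and 11 fell (39.4% and 25.1% of all genes). In Sertoli cells 5 were higher and 14 lower than in spermatogonia and early spermatocytes (34.7% and 29% of all genes, median -0.09), and in macrophages 2 and 12 (26.5% and 24.5% of all genes, median -0.23).

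Complex I assembly factors, the chaperones that build the complex, were counted at the same steps, with the same shares of all genes beside them. Of 17 tested, 5 rose and 10 fell into pachytene (29% and 43.7% of all genes, median -0.63), so the risen were at the share of all genes. Ndufaf3 (2.05 ± 0.19) led the risen and Ndufaf6 (-3.60 ± 0.29) the fallen. Into late spermatocytes 5 rose and 10 fell (29.5% and 26.6% of all genes, median -0.44), so the risen were again near the share of all genes. Into round spermatids 4 rose and 7 fell (35.2% and 27.3% of all genes, median -0.27). Nubpl, which delivers iron-sulphur clusters to the complex, rose by 3.29 ± 0.21 and Ecsit by 1.52 ± 0.18 in round spermatids, whereas Acad9, an assembly factor of the membrane arm, fell by 1.99 ± 0.29. Of the 17, 5 rose and 6 fell into elongating spermatids (39.4% and 25.1% of all genes), with Foxred1 at 2.90 ± 0.22. In Sertoli cells 2 were higher and 10 lower (34.7% and 29% of all genes), and in macrophages 0 and 9 (26.5% and 24.5% of all genes).

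Over the 42 sums of a class and a library, nuclear genes whose levels, as log2(CPM + 1), were among those most like the mean of the heavy-strand members, among 9313 genes with a mean of at least 10 CPM, were Trrap (Pearson r = 0.974), Top1 (0.965), Bod1l (0.958) and Gpatch8 (0.957). For mt-Nd6 they were Helz (0.953), Trrap (0.953), Kif5b (0.935), Exoc1 (0.921) and Nfat5 (0.915). Trrap had 53.5 CPM in spermatogonia and early spermatocytes, 29.8 in pachytene, 5.27 in late spermatocytes, 0.64 in round spermatids, 2.14 in elongating spermatids and 155 in Sertoli cells. The correlation between mt-Nd6 and the heavy-strand mean was 0.961, below the 0.988 to 0.996 of the heavy-strand members with a mean that contains them. The points share libraries, depth and class order, so these values only describe likeness.

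By diet, no member was called in the whole testis, where barcodes of no class supplied 59.1% of the members' UMIs (39.5 to 77.1% a library). The summed level was 2524, 4398 and 5102 CPM in the libraries labelled HFD and 3133, 4135 and 7849 CPM in those labelled LFD, and the groups overlapped. Log2 changes, HFD minus LFD, lay between -0.21 ± 0.31 for mt-Nd4 and -0.52 ± 0.41 for mt-Nd6 (edgeR, adjusted p from 0.986 to 0.988), where 0% of 20727 genes were called, 471 passed an unadjusted p under 0.05 and DESeq2 called 0. LFD 3 had the highest level of every member, and without it all 7 changes were positive, from 0.004 to 0.17.

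Within the 7 classes 0 members were called by diet, against a background of 0% of the genes in each class. Unadjusted, from 319 of 14274 genes in round spermatids to 566 of 13259 in spermatogonia and early spermatocytes passed p under 0.05 among germ cell classes (edgeR). In Sertoli cells 351 of 6832 genes did and in macrophages 22 of 3634. Of the 7 members, 2 did in late spermatocytes, where 433 of 11838 genes did, and 7 in Sertoli cells. In germ cells the median member was at 0.16 in spermatogonia and early spermatocytes, -0.38 in pachytene, 0.19 in late spermatocytes, 0.22 in round and -0.60 in elongating spermatids, with adjusted p of at least 0.778. These medians moved with single libraries, and ranged from -0.017 (without HFD 2) to 0.31 in spermatogonia and early spermatocytes, from -0.64 to 0.14 (without LFD 3) in pachytene, from 0.057 to 0.36 in late spermatocytes, from 0.050 to 0.53 in round spermatids and from -0.89 to -0.015 (without LFD 3) in elongating spermatids when a library was left out. Without HFD 1, 4 members (mt-Nd1, mt-Nd2, mt-Nd4 and mt-Nd5) were called in late spermatocytes, all higher in the libraries labelled HFD. Over all genes 1026 were then called higher and 1084 lower, whereas with all libraries 11838 genes were tested in this class and 0 called. In macrophages the median of the 6 members tested was 0.54, and 0.24 to 0.83 when a library was left out.

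In Sertoli cells the members lay lower in the libraries labelled HFD, without passing the test. mt-Nd1 had 6436, 2010 and 6801 CPM in HFD 1 to 3 and 9214, 8906 and 18624 CPM in LFD 1 to 3. mt-Nd3 had 1265, 503 and 1452 CPM against 1903, 2227 and 4455 CPM. For mt-Nd1, mt-Nd2, mt-Nd3, mt-Nd4 and mt-Nd5, 5 of 7, every library labelled HFD was below every library labelled LFD (exact permutation test, two-sided p = 0.1, the smallest that 3 against 3 allow), as were 8.1% of 9491 genes of at least 10 CPM in this class. mt-Nd4l (342, 208 and 471 against 445, 728 and 1177 CPM) and mt-Nd6 (34.3, 16.4 and 75.8 against 63.8, 93.8 and 211 CPM) overlapped. Leaving out single libraries moved the median member between -1.69 and -0.90, the latter without LFD 3. The log2 changes were -1.22 ± 0.46 for mt-Nd4l to -1.59 ± 0.61 for mt-Nd6 (edgeR, adjusted p = 0.662). Beside them stand the 22 barcodes and few Sertoli markers of HFD 2, and a log2 difference of the sums of -0.44 within replicate 1, whose libraries deviated together from their groups over all genes (r = 0.491 across genes), against -1.89 within the other 4 libraries. The 10 elongating spermatid markers, all detected in each library, summed in this class to 50740, 27729 and 25684 CPM in HFD 1 to 3 and 41117, 16145 and 14094 CPM in LFD 1 to 3, with the highest value in HFD 1 and the lowest 2 in LFD 2 and LFD 3, and the groups overlapped. The 12 Sertoli markers, of which 11 or 12 were detected in each library, summed to 15189, 2305 and 10900 CPM against 17330, 12955 and 16203 CPM, with the lowest 2 in HFD 2 and HFD 3, and the groups overlapped as well. The part of either in the result was not tested. The 6 other mitochondrial mRNAs, none of them called, had a median of -1.21 in the same comparison.

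**Figure D5:**
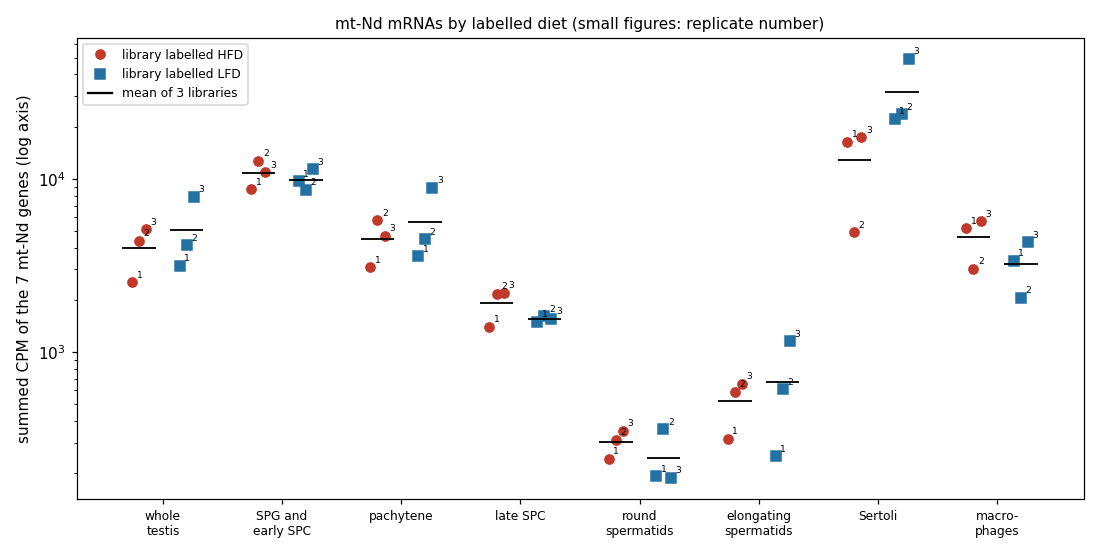
Summed level of the 7 members in the whole testis and in each cell class, in CPM on a logarithmic axis, with 1 symbol per library (circles labelled HFD, squares labelled LFD, with the replicate number beside it) and a bar at the mean of 3 libraries. In Sertoli cells the libraries labelled HFD sit at 4910 to 17368 CPM and those labelled LFD at 22174 to 49313 CPM, while in the whole testis the groups overlap.

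The composition by diet was tested for 56 shares, and 0 were called (exact permutation test, adjusted p = 1). In 3 the groups did not overlap: mt-Nd6 in spermatogonia and early spermatocytes (0.244 ± 0.0105% labelled HFD, 0.286 ± 0.00824% labelled LFD), mt-Nd4 in round spermatids (42.1 ± 0.787% and 39.1 ± 0.624%) and mt-Nd1 in macrophages (34.2 ± 1.33% and 31.9 ± 0.988%), each with the smallest possible p of 0.1 (SD, n = 3). Neither the 6 other mitochondrial mRNAs nor the nuclear subunit and assembly genes held a call by diet in the whole testis or any class.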

How the data were processed

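Per the labels, polyadenylated RNA of testis cells was captured in droplets, and per the methods the authors counted UMIs with Cell Ranger 6.0.1 on mm10. The deposited values are raw UMI counts per gene and barcode of 6 libraries. The methods and the labels name different versions of the 10x kit.

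Barcodes were gated by the mean Pearson residual of their marker UMIs against the library (score of at least 1.5, margin 0.5, at least 3 markers detected), with no doublet removal and no further filter on barcodes. Counts were summed per class and library, and edgeR 4.0.16 (R 4.3.3) fitted quasi-likelihood models with TMM scaling and filterByExpr, with Benjamini-Hochberg adjustment over all genes tested and an adjusted p of 0.05 as the threshold. Shares were compared by exact permutation. DESeq2 1.42.0, clusters (scanpy 1.11.5), other gates, a replicate block and leaving out libraries were alternatives. The tests were checked on simulated data. Named genes of the lists were those of largest change among the called, at most 3 in each direction. Some genes that this rule or the rule of likeness picks are not reported here.

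The members, lists and tests were chosen with earlier results of these data known, and the gate's cuts were set after seeing the data. Replicates are libraries, and the p-values measure the spread between them. A CPM value is relative to all UMIs of its class and library. Intervals of counting error were not computed, and such error weighs most where UMIs are few, as for mt-Nd6 in round spermatids and macrophages.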

Additional observations from a re-analysis of the deposited data

Results flagged for a closer look

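In 8 of 112 groups of 6 libraries a single library lay far from the rest by Dixon's criterion, which chance does in about 1 of 20 groups. In LFD 3, mt-Nd6 had 28.2 CPM in the whole testis (others 5.96 to 14.3), and in pachytene spermatocytes mt-Nd2 had 2197 CPM (others 688 to 1215) and mt-Nd6 39.7 CPM (others 5.70 to 18.2). The pachytene barcodes of LFD 3 had a median of 3383 UMIs. In HFD 2, mt-Nd3 had 1840 CPM in spermatogonia and early spermatocytes (others 889 to 1182) and 180 CPM in late spermatocytes (others 88.4 to 116), and mt-Nd5 was 5.90% of the UMIs of the 7 members in pachytene spermatocytes (others 4.99 to 5.30%). In HFD 3, mt-Nd4 was 28.5% of them in spermatogonia and early spermatocytes (others 25.4 to 26.4%) and mt-Nd2 was 25.1% in late spermatocytes (others 21.3 to 22.1%).

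Barcodes of no class, which entered no comparison of classes and no diet comparison other than that of the whole testis, also held the members, at 0.836% of their UMIs, above the level in most of the germ cell classes. Their median barcode held 0.0432%. The members were 3.98% of the UMIs of a cluster of 2006 barcodes, of which 1762 had no class and 806 came from LFD 3, and 1.76% of a cluster of 6761 barcodes, of which 6596 had no class.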

How the results depend on the processing

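The 7 calls from pachytene to late spermatocytes and from there to round spermatids were made in every alternative that gave a value. From spermatogonia and early spermatocytes to pachytene, 0 members were called with the looser gate and 2 to 7 when a library was left out, with 2 without HFD 1 or LFD 1 and 3 without HFD 3. From round to elongating spermatids 2 were called with classes from clusters, where mt-Nd1 (-0.085), mt-Nd4 (-0.51), mt-Nd4l (-0.38) and mt-Nd5 (-0.50) reversed. The cause was not tested. The summed level moved with those classes to 13594 CPM in spermatogonia and early spermatocytes, 808 CPM in round spermatids and 6232 CPM in macrophages. Of the differences in share that each setting could test, 0 were called with classes from clusters and 0 with the stricter gate. Without each library 0 to 0 were called, where the exact test cannot go below p = 0.0625 with 5 libraries. There 27 to 29 differences still had a single direction. Among all 13 mitochondrial mRNAs, mt-Nd2 (-0.125 points) and mt-Nd4 (-0.396 points) reversed from spermatogonia and early spermatocytes to pachytene.

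By diet within classes, 0 to 4 members were called when a library was left out. The 4 were called without HFD 1 in late spermatocytes, in a fit that also called many other genes in both directions. In the whole testis the log2 changes ranged over the libraries left out from -0.47 to 0.075 for mt-Nd1, -0.61 to 0.15 for mt-Nd2, -0.66 to 0.054 for mt-Nd3, -0.44 to 0.16 for mt-Nd4, -0.67 to 0.088 for mt-Nd4l, -0.53 to 0.17 for mt-Nd5 and -0.83 to 0.0040 for mt-Nd6, and the positive values were those without LFD 3. With the replicate number as a block, 0 members were called in the whole testis or any class, and over all genes 1 was higher and 30 lower in the whole testis, against 0 without the block. Libraries of the same number deviated together with correlations of 0.491, 0.017 and 0.252, so the numbers were not taken to pair the samples.

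Of the members' log2 changes between cell classes under alternatives, 536 kept their direction and side of the threshold, 24 became called, 31 lost the call and 4 reversed. Alternative gates and the minimum of 5000 UMIs were chosen after seeing the data. Clusters gave no late spermatocytes, and Sertoli cells dropped out with the stricter gate and, with macrophages, at 5000 UMIs. Depth limits mt-Nd6 most, with 59 UMIs in round spermatids and 12 in macrophages.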
